A study of Mus musculus with 14 samples.

Results

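The genes described here are the mouse UDP-glucuronosyltransferases (UGTs) of families 2 and 3. They were chosen by name: Ugt2a3, Ugt2b1, Ugt2b5, Ugt2b34, Ugt2b35, Ugt2b36, Ugt2b37, Ugt2b38, Ugt3a1 and Ugt3a2. Each of the 10 genes was read by 1 probe set annotated to it alone, and they are 10 of 22180 genes measured. UGTs sit in the membrane of the endoplasmic reticulum and attach a sugar, mostly glucuronic acid from UDP-glucuronic acid, to steroids, bile acids, bilirubin and drugs, which makes these molecules water-soluble for export into bile or urine. Liver is a main site of this reaction. Family 2 enzymes use UDP-glucuronic acid, whereas the human enzymes of family 3 are known to use other UDP-sugars.

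Liver RNA samples of male C57BL/6 mice, 14 in all, were each hybridized to a whole-transcript array. Alb-cre is present in every group. It is a Cre recombinase driven by the albumin promoter and so active in hepatocytes, and no group is free of it. Mice called WT here are LMNA +/+; Alb-cre+ (2 arrays, G1 and N1, aged 27 and 24.6 weeks, chow), mice called HET are LMNA flx/+; Alb-cre+ and mice called KO are LMNA flx/flx; Alb-cre+. LMNA is the labels' spelling of mouse Lmna, the gene of the nuclear lamins A and C. Chow was standard feed, given for 14 weeks. On it there were 3 HET arrays (F1, F2 and P1, aged 24 to 26.4 weeks) and 3 KO arrays (H1, H2 and I1, 38.9 weeks). Another 3 HET (A2, B1 and B2, 30 to 30.4 weeks) and 3 KO mice (C2, C3 and C4, 35.3 weeks) received the Surwit high-fat diet for 14 weeks with 42 g/L of carbohydrate in the water, of which 55% was fructose and 45% sucrose. This regimen is called HFD. KO mice were older than HET mice on both diets, so age and genotype are confounded. HET mice on HFD were older than those on chow and KO mice on HFD younger, so age and diet are confounded too.

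Values are log2 intensities after RMA, a method that corrects background, evens out arrays and summarizes probes, and array medians over all probe sets lay between 2.21 and 2.30. The targeted gene Lmna, read by 1 dim probe set, averaged 4.47 in WT, 4.31 in HET and 3.85 in KO livers on chow, and 4.15 in HET and 3.99 in KO livers on HFD. On HFD the lowest HET and the highest KO value of Lmna were both 4.07, so it checks those labels only in part. Liver cells in which Cre is not active keep Lmna. All 10 hepatocyte markers measured, among them Alb, Ttr and Cyp2e1, stood between 8.66 and 13.5 on every array. A gene is called when its adjusted p in limma's moderated test, corrected by Benjamini and Hochberg over all 22180 genes of a comparison, is under 0.05. Changes are differences between group means on the log2 scale, and ± after a change is its standard error. The labels give each array its own sample name but do not say that each came from a separate mouse, so p-values measure the spread between these samples. The number of arrays, 2 or 3 a group, limits the precision of every value, and intensities of different genes are not compared with each other.

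In the RefSeq annotation of assembly GRCm38.p6 the 8 family 2 members lie in a row on chromosome 5, in the order Ugt2b34, Ugt2b1, Ugt2b35, Ugt2b36, Ugt2b5, Ugt2b37, Ugt2a3 and Ugt2b38. Ugt2a1, Ugt2a2 and the sulfotransferase genes Sult1b1 and Sult1d1 come next. Ugt3a1 and Ugt3a2 are neighbours on chromosome 15. RefSeq promoter windows were given for 9 of the 10 members, and the 250 bases before the annotated start are described here. The windows shown first are those of Ugt2b38, Ugt2b37 and Ugt2b5, because they were the most alike of all 36 pairs while the array values of these genes differed in pattern. Capitals mark AGGTCA, an element bound by many nuclear receptors, or GTTAAT, part of the HNF1 element, each searched on both strands. The windows are chr5:87424204-87424453, minus strand for Ugt2b38, chr5:87254789-87255038, minus strand for Ugt2b37 and chr5:87140341-87140590, minus strand for Ugt2b5.
Ugt2b38: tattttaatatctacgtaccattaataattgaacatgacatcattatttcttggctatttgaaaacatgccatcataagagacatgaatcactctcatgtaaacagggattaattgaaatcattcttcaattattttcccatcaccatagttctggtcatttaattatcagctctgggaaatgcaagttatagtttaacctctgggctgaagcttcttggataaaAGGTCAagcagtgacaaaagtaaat
Ugt2b37: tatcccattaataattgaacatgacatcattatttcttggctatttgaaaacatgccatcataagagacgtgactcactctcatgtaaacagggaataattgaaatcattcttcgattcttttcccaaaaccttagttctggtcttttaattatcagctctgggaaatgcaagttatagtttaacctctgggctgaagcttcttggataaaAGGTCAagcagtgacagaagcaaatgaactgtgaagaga
Ugt2b5: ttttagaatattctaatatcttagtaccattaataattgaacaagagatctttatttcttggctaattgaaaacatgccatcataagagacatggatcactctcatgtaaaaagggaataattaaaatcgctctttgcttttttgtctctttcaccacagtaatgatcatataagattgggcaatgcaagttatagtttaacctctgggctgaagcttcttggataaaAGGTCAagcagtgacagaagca

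The windows of Ugt2b38 and Ugt2b37 were 84.8% identical, those of Ugt2b38 and Ugt2b5 81.6% and those of Ugt2b37 and Ugt2b5 70.4%, by edit distance over 250 bases. The median over all 36 pairs was 47.6% and the lowest value 43.6%. Probes of such close relatives may pick up each other's transcripts, and this was not tested. The other windows shown belong to members whose averages over both diets differed between KO and HET livers: Ugt2a3 (chr5:87337196-87337445, minus strand) and Ugt2b1 (chr5:86926504-86926753, minus strand), which were lower in KO, and Ugt2b35 (chr5:87000610-87000859, plus strand), which was higher.
Ugt2a3: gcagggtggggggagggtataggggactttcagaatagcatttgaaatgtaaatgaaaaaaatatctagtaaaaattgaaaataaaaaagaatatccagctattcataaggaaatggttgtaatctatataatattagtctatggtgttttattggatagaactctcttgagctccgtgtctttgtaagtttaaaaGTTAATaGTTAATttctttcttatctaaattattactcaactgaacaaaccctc
Ugt2b1: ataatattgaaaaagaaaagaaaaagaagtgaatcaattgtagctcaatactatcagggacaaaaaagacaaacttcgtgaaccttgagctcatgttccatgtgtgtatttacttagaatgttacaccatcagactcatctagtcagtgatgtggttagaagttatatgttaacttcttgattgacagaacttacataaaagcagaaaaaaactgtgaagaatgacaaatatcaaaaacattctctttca
Ugt2b35: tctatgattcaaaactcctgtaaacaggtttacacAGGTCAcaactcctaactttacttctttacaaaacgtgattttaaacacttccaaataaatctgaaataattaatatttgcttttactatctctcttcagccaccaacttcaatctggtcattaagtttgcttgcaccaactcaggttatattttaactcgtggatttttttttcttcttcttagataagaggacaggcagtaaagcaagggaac
The window of Ugt2b1 holds neither motif.

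AGGTCA was found in 5 of 9 member windows, against 14.0% of 32851 windows of the same length. In Ugt2b5, Ugt2b36, Ugt2b37 and Ugt2b38 it began 22 to 39 bases before the start, inside a stretch these windows share, so these matches are not independent of each other. In Ugt2b35 it began 215 bases before the start. GTTAAT was found in 2 of 9 windows, Ugt2a3 and Ugt3a1, against 6.43% of all windows, and Ugt2a3 held it at 54 and again at 47 bases before the start. TTCNNNGAA, the motif of STAT5, and TGACNNNGC, that of NRF2, were in 0 of 9 member windows and in 7.02% and 10.2% of all windows. These are letter matches and no measure of binding.

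**Figure D1:**
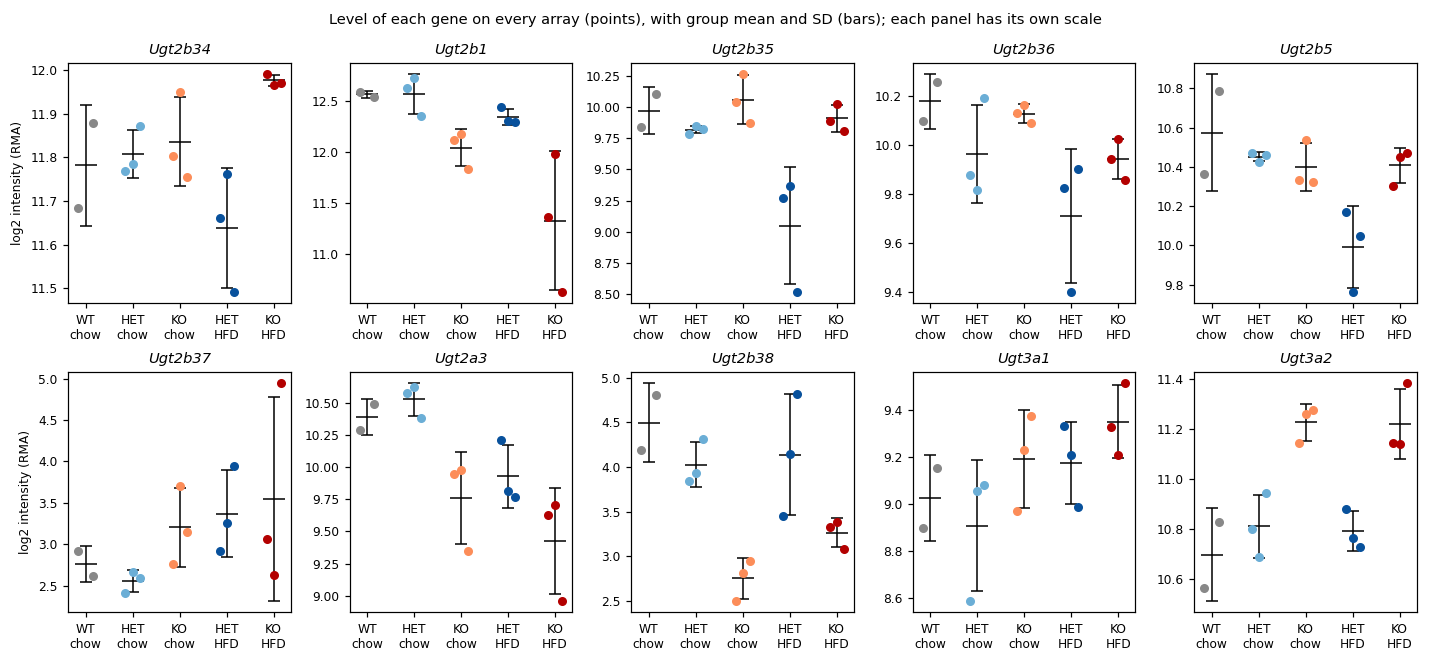
Log2 intensity (vertical axes, each panel with its own scale) of the 10 genes on every array, by genotype and diet (horizontal axes). Points are arrays, horizontal bars group means and whiskers SD (n = 2 for WT, 3 for each other group). All 6 KO points lie below all 6 HET points for Ugt2b1 and Ugt2b38 and above them for Ugt3a2, and the KO point at the bottom of both the Ugt2b1 and the Ugt2a3 panel is array C4.

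Averaged over both diets, 3 members were lower in KO than in HET livers and 2 were higher. Ugt2b38 (-1.07 ± 0.20, adjusted p = 0.00409), Ugt2b1 (-0.77 ± 0.18, adjusted p = 0.0147) and Ugt2a3 (-0.63 ± 0.15, adjusted p = 0.0192) fell, while Ugt3a2 (0.42 ± 0.08, adjusted p = 0.00511) and Ugt2b35 (0.55 ± 0.13, adjusted p = 0.0219) rose, by limma. The count of 5 of 10 called stood against a background of 9.43% of all genes, with 2 of 10 higher against 6.52% and 3 of 10 lower against 2.90%. At an unadjusted p under 0.05 were 6 of 10 members and 22.2% of all genes. The members thus moved in opposite directions, and their median change was 0.19 beside -0.02 for all genes. The values of all 6 KO arrays lay apart from those of all 6 HET arrays for 3 of 10 members, Ugt2b1, Ugt2b38 and Ugt3a2, and for 4.64% of all genes. Within each diet, and in the same direction on both, 5 of 10 members did not overlap, as did 6.84% of all genes. The calls of Ugt2a3, Ugt2b1, Ugt2b38 and Ugt3a2 held in each of 14 fits that left out 1 array, and that of Ugt2b35 was lost without KO H2 (adjusted p = 0.0564) or KO C3 (adjusted p = 0.0506). With age as a linear term, estimated from the small age differences within groups, the change of Ugt2b38 turned to 1.22 ± 1.09. None of the 5 was called in that fit, beside 0.951% of all genes.

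Among the genes of the Ugt2b subfamily, which conjugate steroids and many drugs, Ugt2b1 had the widest range of group means after Ugt2b38. It read 12.58 and 12.54 in the WT livers, 12.62, 12.73 and 12.35 in HET livers on chow, and 12.12, 12.17 and 11.83 in KO livers on chow. HET livers on HFD read 12.43, 12.30 and 12.29, and the KO livers there 11.36, 11.98 and 10.62. Every KO array was thus below every HET and WT array, KO C4 was the lowest of all, and the spread within KO livers on HFD (SD 0.68) was over that of any other group. From low to high the group means ran KO on HFD, KO on chow, HET on HFD, WT and HET on chow. KO on chow and HET on HFD did not overlap, nor did HET on HFD and WT, whereas the other neighbours in that order did.

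Ugt2b1 fell by 1.02 on the log2 scale between HET and KO livers on HFD (SE 0.25, adjusted p = 0.0256 by limma), which is a 2.03-fold lower intensity. On chow the groups did not overlap either, but the change against HET (-0.52 ± 0.25, adjusted p = 0.394) and that against WT (-0.52 ± 0.28, adjusted p = 0.532) were not called. The call on HFD was lost without HET A2 (adjusted p = 0.0777), B1 (0.0641) or B2 (0.0554) and without KO C2 (0.0676) or C4 (0.0633), and without C4 the change was -0.67.

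Ugt2b38 had the widest range of group means, 1.74, and it is a dim gene with values near the array medians in some livers, so its sizes are uncertain. It read 4.19 and 4.81 in WT livers and 3.84, 3.93 and 4.31 in HET livers on chow. In KO livers on chow it read 2.50, 2.82 and 2.95, close to the array medians. With HFD it read 3.46, 4.14 and 4.82 in HET livers and 3.33, 3.39 and 3.08 in KO livers. The 6 KO arrays were the 6 lowest, and KO livers on chow lay below KO livers on HFD without overlap.

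Ugt2b38 fell in KO livers on chow both against HET (-1.27 ± 0.28, adjusted p = 0.0375) and against WT (-1.74 ± 0.31, adjusted p = 0.0127), by limma. These comparisons share the KO arrays. On HFD the change was -0.87 ± 0.28 with an adjusted p of 0.0837, which was not called. Its call against HET on chow was lost in 9 of 14 fits without 1 array, at adjusted p values from 0.0514 without KO C3 to 0.109 without KO H1, and its call against WT was lost without WT N1 (0.172). The arrays whose loss ended the call against HET were F1, F2, P1, H1, H2, I1, B1, C2 and C3. On HFD it was called without HET A2 (-1.21, adjusted p = 0.0149), while without HET B2 its change was -0.53 (adjusted p = 0.241). With age as a linear term its changes on chow turned to 2.04 ± 1.57 against HET and 1.52 ± 1.55 against WT, neither called.

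Ugt2b35 stood apart in HET livers on HFD. There it read 9.27, 9.37 and 8.52, the 3 lowest of all 14 values. It read 9.84 and 10.10 in WT livers, 9.79, 9.85 and 9.82 in HET livers on chow and 10.04, 10.26 and 9.87 in KO livers on chow. In KO livers on HFD it read 9.88, 10.03 and 9.81, which overlaps the chow groups of WT, HET and KO. HET livers on HFD did not overlap their neighbour in the order of means, HET on chow, and the other neighbours overlapped.

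Ugt2b35 was higher in KO than in HET livers on HFD (0.86 ± 0.19, adjusted p = 0.0156 by limma), a 1.81-fold intensity, and the call was lost without KO C3 (adjusted p = 0.0557). On chow the KO and HET values did not overlap but differed by 0.24 ± 0.19 (adjusted p = 0.662). The diet difference in HET livers was -0.77 ± 0.19 (adjusted p = 0.165) and that in KO livers -0.15 ± 0.19 (adjusted p = 0.844). The interaction of genotype and diet was 0.62 ± 0.27 (unadjusted p = 0.0395 and adjusted p = 0.48, limma) and was not called, so the diet differences of the genotypes are not shown to differ.

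Ugt2b5, Ugt2b36 and Ugt2b34 of the same row also had their lowest group mean in HET livers on HFD. None of these was called in any of the 8 comparisons. Ugt2b1, which lies between Ugt2b34 and Ugt2b35, had its lowest group mean in KO livers on HFD. Ugt2b5 read 10.17, 9.76 and 10.05 there, below the other 11 arrays, which lay between 10.30 and 10.78. Its KO minus HET change on HFD was 0.41 ± 0.13 (adjusted p = 0.0858) and its interaction 0.47 ± 0.19 (unadjusted p = 0.0293, adjusted p = 0.445). Ugt2b34 was the steadiest member, with group means within 0.34 of each other. It read 11.66, 11.76 and 11.49 in HET and 11.99, 11.97 and 11.97 in KO livers on HFD, which do not overlap, and the change of 0.34 ± 0.10 had an adjusted p of 0.07. With each array centred on its median over all probe sets, Ugt2b5 (adjusted p = 0.0462) and Ugt2b34 (adjusted p = 0.0251) were called there by limma. These medians were 2.26 to 2.30 in HET and 2.21 to 2.23 in KO livers on HFD. Of 9 alternatives, leaving aside the age term and the stricter threshold, Ugt2b5 was called in 3 and Ugt2b34 in 4. Each was called in 0 of 14 fits without 1 array. Ugt2b36, known for conjugating morphine, had overlapping neighbours throughout its order of group means, and on HFD its KO and HET groups overlapped (0.23 ± 0.14, adjusted p = 0.389).

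Ugt2b37 was near the array medians in most livers. Its values ran from 2.41 in HET F1 to 4.95 in KO C4, with group means between 2.56 on HET chow arrays and 3.54 on KO HFD arrays. The KO livers on HFD alone spanned 2.62 to 4.95 (SD 1.24, n = 3). None of its 8 comparisons was called, the KO minus HET difference being 0.65 ± 0.47 on chow and 0.18 ± 0.47 on HFD (adjusted p = 0.624 and 0.887). No difference was detectable at this level and spread.

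Ugt2a3, a family 2 enzyme whose human counterpart conjugates bile acids, lies between Ugt2b37 and Ugt2b38. It read 10.29 and 10.49 in WT livers, 10.58, 10.62 and 10.38 in HET livers on chow and 9.95, 9.98 and 9.34 in KO livers on chow. HET livers on HFD read 10.21, 9.81 and 9.76, and KO livers 9.63, 9.70 and 8.96. Within each diet every KO array was below every HET array, and HET livers on HFD were below those on chow. The KO minus HET changes of single diets were not called, at -0.77 ± 0.21 on chow (adjusted p = 0.102) and -0.50 ± 0.21 on HFD (adjusted p = 0.208). The HFD difference in HET livers, -0.60 ± 0.21, had an adjusted p of 0.348. The order of its group means was that of Ugt2b1, and in both genes the lowest array was KO C4 and the highest HET F2.

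Ugt3a2, of the family whose human members use other UDP-sugars than UDP-glucuronic acid, separated by genotype on both diets. It read 10.57 and 10.83 in WT livers, 10.80, 10.69 and 10.94 in HET livers on chow and 11.14, 11.26 and 11.28 in KO livers on chow. HET livers on HFD read 10.88, 10.76 and 10.73, and KO livers 11.14, 11.14 and 11.39. All 6 KO arrays, at 11.14 to 11.39, lay above the 8 other arrays, whose highest value was 10.94, and the diets overlapped within each genotype. The one gap in its order of group means was between HET on chow and KO on HFD.

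The Ugt3a2 difference was called on HFD (0.43 ± 0.11, adjusted p = 0.0381 by limma) and was of the same size on chow without being called (0.42 ± 0.11, adjusted p = 0.0986). Against WT it was 0.53 ± 0.13 (adjusted p = 0.0635). The call on HFD was lost in 8 of 14 fits without 1 array, from HET F1 (adjusted p = 0.0512) to KO C4 (0.157). The others were without KO H2 (0.0523), HET A2 (0.058), B1 (0.0992), B2 (0.0964), KO C2 (0.0685) and C3 (0.0594). The HFD call was also lost with the array letter as a random effect (adjusted p = 0.0519) and with the age term (0.192). HFD against chow left it at -0.02 ± 0.11 in HET and -0.01 ± 0.11 in KO livers.

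Its neighbour Ugt3a1, whose human counterpart uses UDP-N-acetylglucosamine, overlapped between all neighbouring groups. It ran from 8.59 in HET F1 to 9.51 in KO C4, and its KO minus HET change was 0.28 ± 0.16 on chow (adjusted p = 0.497) and 0.17 ± 0.16 on HFD (adjusted p = 0.608). Ugt3a1 and Ugt3a2 thus share the sign of the change while only Ugt3a2 was called, and the difference between these 2 genes was not tested. KO C4 was the highest array for Ugt2b37, Ugt3a1 and Ugt3a2 and the lowest for Ugt2b1 and Ugt2a3.

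**Figure D2:**
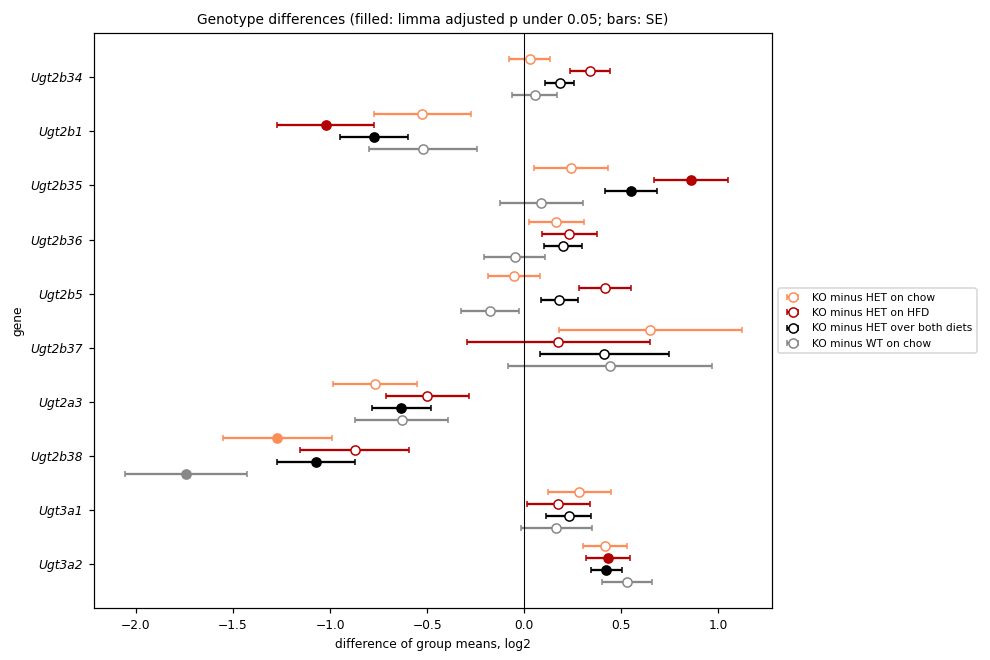
Differences of group means in log2 units (horizontal axis, bars are SE) for the 10 genes (vertical axis, family 2 in chromosomal order, then family 3) in 4 genotype comparisons, with filled points called by limma. Ugt2b1, Ugt2a3 and Ugt2b38 lie left of 0 in all 4 comparisons, and Ugt2b34, Ugt2b35, Ugt2b37, Ugt3a1 and Ugt3a2 lie right of it. The largest difference is that of Ugt2b38 between KO and WT livers, -1.74.

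On chow, KO livers were compared with HET and with WT livers that share the KO arrays. In each of these, 1 of 10 members was called, Ugt2b38, against a background of 1.92% of genes for KO against HET (1.44% higher and 0.478% lower) and 1.65% for KO against WT (1.24% higher and 0.410% lower). Of the 10325 genes with at least 1 group mean of 4 or more, 5.35% were called against HET and 4.37% against WT. At an unadjusted p under 0.05 were 3 of 10 members in either comparison, beside 13.4% and 11.8% of all genes. Without overlap between KO and HET values were 6 of 10 members, Ugt2a3, Ugt2b1, Ugt2b35, Ugt2b37, Ugt2b38 and Ugt3a2, while this held for 18.9% of all genes. Between KO and WT it was 4 of 10, Ugt2a3, Ugt2b1, Ugt2b38 and Ugt3a2, beside 28.7%. The median change of the members was 0.10 against HET and 0.00 against WT, beside -0.01 and 0.00 for all genes. Their changes ran from the fall of Ugt2b38 to 0.65 for Ugt2b37 against HET.

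Between HET and WT livers on chow no member passed the threshold. By limma 0 of 10 were called, where 0 of all genes were called (0%), and at an unadjusted p under 0.05 the count was also 0 of 10, beside 4.30% of all genes. The differences ran from -0.47 ± 0.31 for Ugt2b38 (adjusted p = 0.999) to 0.14 ± 0.24 for Ugt2a3, and 0 of 10 members were without overlap, beside 17.9% of all genes. With 2 WT arrays the 95% interval for Ugt2b38 reached from -1.15 to 0.21.

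On HFD, KO livers differed from HET livers in 3 of 10 members, Ugt2b1, Ugt2b35 and Ugt3a2, against a background of 7.56% of all genes (2 of 10 higher against 5.50% and 1 of 10 lower against 2.06%). At an unadjusted p under 0.05 were 7 of 10 members and 20.5% of all genes. Without overlap were 7 of 10 members, those 3 with Ugt2a3, Ugt2b5, Ugt2b34 and Ugt2b38, and 26.2% of all genes. The median change was 0.20 beside -0.02 for all genes. When only the 6 HFD arrays were fitted, 0 of 10 members were called, with adjusted p values of 0.103 for Ugt2b1, 0.0705 for Ugt2b35 and 0.0875 for Ugt3a2. In that fit 5.77% of all genes were called. Under median centring the count was 5 of 10, beside 8.10% of all genes.

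In the comparisons of diets, whose groups also differ in age, no member passed the threshold. By limma 0 of 10 members were called for HFD against chow in HET livers (background 0.198%, and 3 of 10 at an unadjusted p under 0.05 beside 10.2% of all genes) and 0 of 10 in KO livers (background 0.316%, and 1 of 10 beside 11.1%). The 3 in HET livers were Ugt2b35, Ugt2b5 (-0.46 ± 0.13, adjusted p = 0.235) and Ugt2a3, all lower on HFD, and the 1 in KO livers was Ugt2b1 (-0.72 ± 0.25, adjusted p = 0.297), whose diet groups overlapped. Without overlap between the diets were 5 of 10 members in HET livers (Ugt2a3, Ugt2b5, Ugt2b34, Ugt2b35 and Ugt2b37, beside 13.6% of all genes) and 3 of 10 in KO livers (Ugt2b34, Ugt2b36 and Ugt2b38, beside 18.9%). The diet and genotype comparisons share arrays. The interaction of genotype and diet was called for 0 of 10 members (background 0.0361%), and at an unadjusted p under 0.05 for 2 of 10 beside 9.86% of all genes, namely Ugt2b5 and Ugt2b35.

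**Figure D3:**
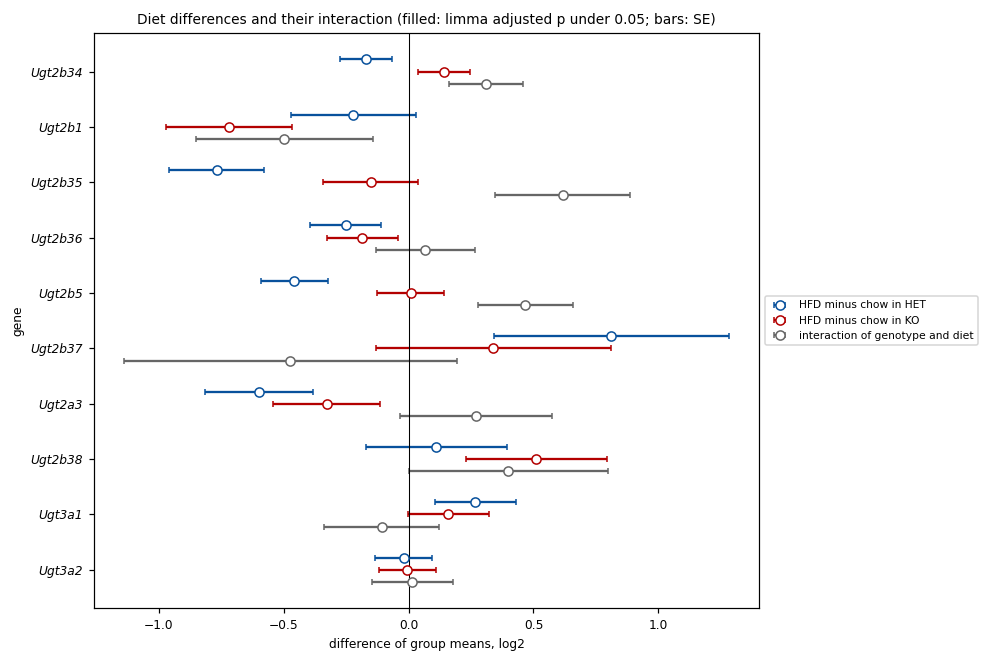
Differences in log2 units (horizontal axis, bars are SE) between HFD and chow in HET and in KO livers, and their interaction, for the 10 genes (vertical axis). No point is filled, as limma called none, and the lowest diet difference in HET livers is that of Ugt2b35 at -0.77.

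Other genes of glucuronidation were grouped by role into lists. The lists were chosen with earlier results of these data known, so their counts beside those of all genes are descriptive only. Beside the list counts below, 5.50% of all genes were called higher and 2.06% lower in KO than in HET livers on HFD. On chow these shares were 1.44% and 0.478%. At an unadjusted p under 0.05 were 20.5% of all genes on HFD and 13.4% on chow. The UGT1 family had no probe set annotated to a single member and was not analysed here, and Ugt2a1 and Ugt2a2 share theirs. Ugt8a, which makes galactosylceramide, was not called on HFD (0.36 ± 0.18, adjusted p = 0.278). Of 12 genes measured for UDP-sugar supply and transport into the endoplasmic reticulum, 1 rose and 0 fell between HET and KO livers on HFD, where the list's median change was 0.18. That gene was Ugdh, the dehydrogenase that makes UDP-glucuronic acid. It read 10.29, 10.09 and 10.22 in HET and 11.29, 11.24 and 11.39 in KO livers on HFD, a change of 1.11 ± 0.11 (adjusted p = 1.46e-04, limma). HET livers on chow read 11.09, 11.03 and 11.08 and KO livers on chow 11.10, 11.32 and 11.32, so HET livers on HFD again stood below the rest. The fall of Ugdh with HFD in HET livers was called (-0.87 ± 0.11, adjusted p = 0.00837), and both calls held in each of 14 fits without 1 array. On chow 0 of these 12 genes were called by limma in KO against HET livers, and 0 of 12 at an unadjusted p under 0.05. Gusb, the lysosomal enzyme that hydrolyses glucuronides, was not called on HFD (0.43 ± 0.14, adjusted p = 0.0851).

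Carriers of glucuronides and other organic anions changed in both directions between HET and KO livers on HFD, with 2 of 8 higher and 2 lower. Abcc4, an export pump of the sinusoidal membrane, read 4.82, 4.79 and 4.72 in HET and 8.12, 8.09 and 8.53 in KO livers, a rise of 3.47 ± 0.21 (adjusted p = 1.26e-06). Abcc3, a related pump for glucuronides, was higher in KO than in HET livers on HFD by 1.47 ± 0.31 (adjusted p = 0.0109). There the HET mean was the low one, at 8.59 beside 10.06 in KO livers. On chow the means were 9.94 in WT, 9.88 in HET and 10.11 in KO livers. HET B2 read 7.59 for Abcc3 where the other HET arrays on HFD read 9.11 and 9.08, and without it the change was 0.97 (adjusted p = 0.00251). The uptake carriers Slco1a1 (-2.78 ± 0.52, adjusted p = 0.0059) and Slco1a4 (-1.01 ± 0.28, adjusted p = 0.0417) fell, and the call of Slco1a4 was lost without F2, H2, I1, A2, B1, B2, C3 or C4, at up to 0.115 without HET B2, and its change was -0.62 without KO C3. On chow 1 of 8 rose and 0 fell, again Abcc4 (1.61 ± 0.21, adjusted p = 0.00121).

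Of 16 measured regulators of UGT genes, 0 rose and 2 fell in KO against HET livers on HFD. They were the transcriptional repressor Bcl6 (-2.65 ± 0.65, adjusted p = 0.0255) and the hepatocyte factor Hnf4a (-0.36 ± 0.10, adjusted p = 0.0423). The call of Bcl6 was lost without A2, B2, C2, C3 or C4, at up to 0.088 without HET B2. That of Hnf4a was lost without any one of F1, F2, H1, H2, A2, B1, B2, C2, C3 and C4, at up to 0.156 without KO C2. On chow 0 rose and 1 fell, the liver factor Onecut1 (-2.78 ± 0.40, adjusted p = 0.0027). Bcl6 had the opposite sign there, 1.19 ± 0.65 against HET, which was not called (adjusted p = 0.468). Its HFD minus chow change was 1.56 ± 0.65 in HET and -2.28 ± 0.65 in KO livers, neither called by limma (adjusted p = 0.434 and 0.19).

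Genes near the members were looked at in the same way. Around the Ugt2 row, 1 of 13 was higher in KO livers on HFD and 0 lower, beside 5.50% and 2.06% of all genes. On chow 0 of 13 were called by limma while 3 of 13 had an unadjusted p under 0.05, beside 13.4% of all genes. The gene higher on HFD was Stap1 (0.79 ± 0.21, adjusted p = 0.0382, lost without F2, H1, A2, B1, B2, C2 or C3, at up to 0.138 without KO C2). Around Ugt3a1 and Ugt3a2, 3 of 8 were higher on HFD and 0 lower: Capsl, which follows Ugt3a2 in the annotation (1.14 ± 0.25, adjusted p = 0.0141), Il7r (1.17 ± 0.20, adjusted p = 0.00361) and Skp2 (0.85 ± 0.21, adjusted p = 0.0285). The call of Capsl was lost without HET A2 or KO C4 (0.0556 and 0.0659), and that of Skp2 without HET A2, HET B1, KO C2 or KO C4 (0.0592 to 0.113). On chow 0 of these 8 were called by limma, with 2 of 8 at an unadjusted p under 0.05. Capsl read 1.86 to 2.22 in HET livers on HFD, at or below the array medians, and Il7r read 2.17, 2.35 and 2.73 there, at or near them, so the sizes of both are uncertain.

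Over both diets, 11 of these 59 listed genes were higher in KO than in HET livers and 4 were lower by limma, beside 6.52% and 2.90% of all genes. Without 1 array the counts ran from 8 to 11 higher and from 1 to 4 lower. The export pump Abcg2 (0.86 ± 0.17, adjusted p = 0.00593), the estrogen sulfotransferase gene Sult1e1 (1.81 ± 0.39, adjusted p = 0.0106) and Nfe2l2, which encodes NRF2 (0.40 ± 0.09, adjusted p = 0.0172), rose and were called in each of 14 such fits. Of the 4 lower genes Slco1a1 was called in each fit, whereas Slco1a4 was lost in 7, Foxa1 in 6 and Onecut1 in 11 of 14, at adjusted p values up to 0.0883, 0.0763 and 0.0968. Among the higher genes Stat5a was lost in 12, Pgm2 in 7 and Abcc3 in 4 of 14. The change of Onecut1 had opposite signs by diet, -2.78 on chow and 0.73 on HFD, the latter not called (adjusted p = 0.333).

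By diet, 0 of 59 rose and 3 fell in HET livers on HFD, namely Ugdh, Abcc4 and Slco1a4, where 0.198% of all genes were called in either direction. Without 1 array the number that fell ran from 1 to 4. The call of Abcc4 was lost in 10 of 14 fits (adjusted p up to 0.201 without HET F2) and that of Slco1a4 in 6 (up to 0.132 without HET F1). In KO livers 0 rose and 1 fell, Slco1a4 (-2.30 ± 0.28, adjusted p = 0.00401), where 0.316% of all genes were called in either direction.

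**Figure D4:**
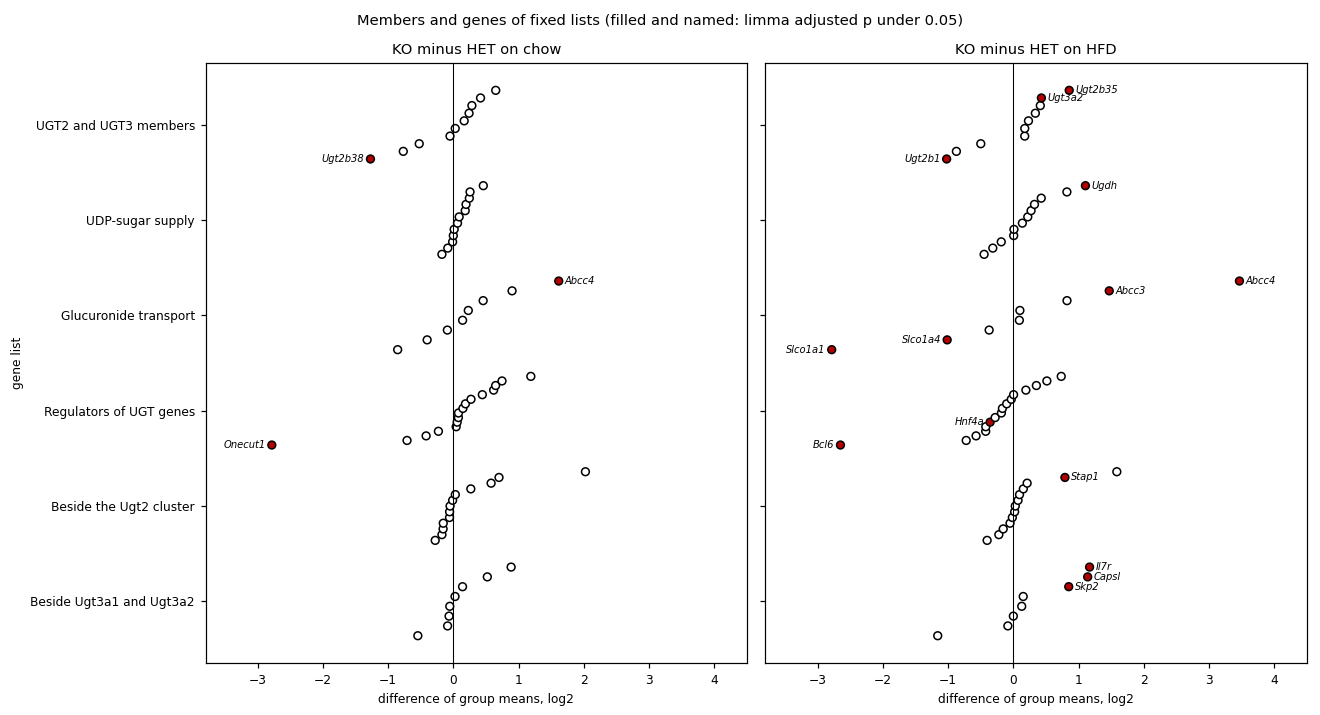
KO minus HET difference in log2 units (horizontal axes) on chow (left) and HFD (right) for the members and 5 gene lists (vertical axis). Each gene is 1 point, and called genes are filled and named. On chow 3 genes are filled, Ugt2b38, Abcc4 and Onecut1, and on HFD the filled points lie on both sides of 0.

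Some cell type markers differed between KO and HET livers on both diets. Of all genes, 5.50% were called higher and 2.06% lower on HFD, and 1.44% and 0.478% on chow. In bulk tissue fewer cells of a type and less RNA per cell cannot be told apart. The hepatocyte list, averaged over its 10 genes, stood at 12.29 to 12.34 in HET and 12.01 to 12.10 in KO livers on HFD, and 3 of its 10 genes fell and 0 rose, with a median change of -0.29. They were Cps1, Apoa1 and Hnf4a, the last also counted among the regulators. Without any one of A2, B2, C2, C3 and C4 the calls of Apoa1 and Hnf4a were both lost, which left 1. On chow its level was 12.28 to 12.30 in HET and 12.22 to 12.27 in KO livers, and 0 of 10 were called by limma, with 2 of 10 at an unadjusted p under 0.05. The macrophage list stood at 6.01 to 6.44 in HET and 6.91 to 7.17 in KO livers on HFD, with 3 of 9 genes higher (Cx3cr1, Trem2 and Gpnmb) and 1 lower (Timd4). On chow it stood at 5.73 to 6.39 in HET and 6.22 to 6.83 in KO livers, with 2 of 9 higher (Cx3cr1 and Trem2) and 1 lower (Timd4). The lymphocyte list ran from 3.33 to 3.72 in HET and from 4.01 to 4.40 in KO livers on HFD, with 0 of 5 called by limma and 3 of 5 at an unadjusted p under 0.05. The stellate cell list had 1 of 6 genes higher, Col1a1, and 1 lower, Reln, on HFD (list means of 6.32 to 6.86 in HET and 6.86 to 6.96 in KO livers). On chow 0 of 6 were higher and 1 lower, Lrat (-1.22 ± 0.23, adjusted p = 0.0162 by limma), a call lost without F1, F2 or I1 (0.0527 to 0.0657). The endothelial list had 0 of 5 higher and 1 lower on HFD, Stab2, whose call was lost in 12 of 14 fits without 1 array (list means of 8.30 to 8.51 and 8.48 to 8.58). On HFD the cholangiocyte list had 0 of 4 called by limma and 1 of 4 at an unadjusted p under 0.05 (list means of 3.56 to 3.71 and 3.76 to 4.31). The intestine and kidney list had 0 of 5 and 1 of 5 (list means of 3.50 to 3.55 and 3.47 to 4.11). Averaged over both diets, 1 of 4 and 1 of 5 were higher by limma and 0 lower, beside 6.52% and 2.90% of all genes. They were Epcam (0.88 ± 0.21, adjusted p = 0.0169) and Vil1 (2.38 ± 0.45, adjusted p = 0.00482). In the red cell, pancreas and fat list the red cell genes Hba-a1 and Hbb-bs were not measured, so it says nothing of red cells. The mean of its 4 measured genes, Cpa1, Prss2, Cela1 and Adipoq, stood at 2.17 to 2.30 in HET and 2.45 to 2.74 in KO livers on HFD. Of these, 1 of 4 was higher, Cela1 (1.82 ± 0.34, adjusted p = 0.00611). The neutrophil list, with 0 of 4 called and 0 of 4 at an unadjusted p under 0.05, lay at 1.53 to 1.83 in all livers, under the array medians. Their part in the differences of the UGT genes was not tested.

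For the 3 members with the widest range of group means, the genes with the most similar course were sought among 9391 others that averaged at least 4. Likeness was the root mean square difference over 14 arrays of mean-centred log2 values. Nearest to Ugt2b38 were Pgap1 (0.35), Hes6 (0.36) and Cyp2j9 (0.39), where Ugt2b38 itself departed from its mean by 0.70. Nearest to Ugt2b1, with a departure of 0.54, were Egfr (0.24), Ldah (0.24) and Lifr (0.25). For Ugt2a3, with 0.47, they were Map4k5 (0.21), Cep68 (0.22) and Car1 (0.22).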

How the data were processed

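Total RNA of 14 liver samples was labelled from 400 ng with the WT Plus kit, per the labels' protocols. Each deposited value is the log2 intensity of a probe set, and the submitters' processing notes name RMA and limma, without versions. A batch adjustment is not stated. Of 41345 probe sets, 23521 had 1 gene symbol, 1814 several and 16010 none in the platform annotation. Genes with several probe sets were read by the brightest on average, which left 22180, with no filter on level. Group means were fitted by limma 3.58.1 (R 4.3.3) on the 14 arrays jointly, leaving 9 residual degrees of freedom beside 3.83 from the prior, and 8 contrasts were tested. Members and lists were chosen with earlier results of these data known. The text names every member, called list genes or those of smallest p, and the 3 nearest genes by likeness. Lists covered sugar supply, carriers, regulators, neighbours and cell type markers. Alternatives were a trended robust prior, a dim filter at 4, means of probe sets, all probe sets, only the groups compared, median centring, a second quantile normalization, the array-name letter as a random effect, an age term, array weights, an adjusted p under 0.01 and leaving out each array. Promoter windows came from RefSeq (GRCm38.p6), with identity from edlib 1.3.9.post1. The procedure was tested on simulated data.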

Additional observations from a re-analysis of the deposited data

How the results depend on the processing

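Counts of members called changed as follows. For KO against HET over both diets (5 called), 2 were called at an adjusted p under 0.01 and 0 with the age term. The shares of all genes called there were 4.51% and 0.951%. On HFD (3 called) the count was 5 with the trended robust prior, the dim filter, median centring or a second quantile normalization, beside 8.38%, 18.3%, 8.10% and 7.52% of the genes tested. It was 0 when only the groups compared were fitted, with the age term or at an adjusted p under 0.01, beside 5.77%, 1.12% and 3.18%. On chow against HET (1 called) it was 2 with the trended robust prior, beside 2.20% of all genes. It was 0 with the age term or at an adjusted p under 0.01, beside 0.906% and 0.708%. Against WT (1 called) it was 2 with that prior, the dim filter or median centring, beside 1.93%, 4.37% and 1.74% of the genes tested. It was 0 with the age term or at an adjusted p under 0.01, beside 0.559% and 0.681%. The dim filter left 10325 genes. It removed Ugt2b37, whose highest group mean was 3.54, so the counts under it do not include that member. Ugt2b38 passed the filter only through the WT and HET groups, where it is high, so its call there is no support. Without 1 array the counts ran from 4 to 5 over both diets, 1 to 3 on HFD, and 0 to 1 on chow against HET and against WT, while the share of all genes called ran from 6.64% to 9.17%, 4.38% to 8.06%, 0.897% to 2.34% and 0.694% to 1.85%. Where a WT array is left out, the lone other is assumed to vary like the other groups. The count of 0 for HET against WT, both diet comparisons and the interaction was 0 in all alternatives run. The age term turned Ugt2b38 to 2.04 against HET and 1.52 against WT on chow and 1.22 over both diets. No other called change reversed. The array letter as random effect (correlation 0.0506) lost the call of Ugt3a2 on HFD (adjusted p = 0.0519) and no other. No paired analysis was possible because replicate numbers were given in accession order and pair no mice.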
